A study of Mus musculus with 48 samples.

Results

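The small RNAs of the trigeminal ganglion (TG) were compared 4 h after an injection of lipopolysaccharide (LPS) or saline in mice. The TG is the sensory ganglion of the face. The 8 libraries were chosen by their labels, as all TG libraries of the 4 h time point, out of 48 libraries in the series, whose others are TG at 24 h and 7 d and, at all 3 times, the sympathetic superior cervical ganglion (SCG). All mice were Balb/c and 2.5 months old. The 4 saline mice received 0.2 mL of saline into the peritoneum and the 4 LPS mice the same volume with 2.5 mg/kg of LPS from Escherichia coli O55:B5. Each group held 2 females (replicates 1 and 2) and 2 males (replicates 3 and 4). All were killed with CO2, and the left and right TG of a mouse made 1 RNA sample, so each replicate is a different mouse. No genotype differed between the groups, and a whole ganglion holds sensory neurons, satellite and Schwann cells, vessels, resident immune cells and blood. In such bulk RNA, fewer cells of a type and less RNA per cell cannot be told apart.

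LPS is sensed by Toll-like receptor 4 on innate immune cells and some sensory neurons and switches on the transcription factor NF-kB. MicroRNAs (miRNAs) are short RNAs that lower the output of messenger RNAs matching their seed, the bases from the second to the eighth. Among them miR-155 is made from an NF-kB target transcript in activated immune cells, miR-146a is induced later and dampens the same receptor pathway, and miR-21 is raised in many inflamed and injured tissues. Transfer RNA fragments (tRFs) are cut from tRNAs. A 5'-half or 3'-half comes from a cut in the anticodon loop, which the nuclease angiogenin makes under stress. The 5'-tRFs, 3'-tRFs and internal fragments (i-tRFs) are usually shorter and from other cuts. Types here are those of the deposited annotation, in which some 5'-tRFs are as long as 5'-halves. An AspGTC and a LysCTT 5'-tRF among those named below each have 36 bases and end in the anticodon. The comparison asks which small RNAs of a sensory ganglion differ in the first hours of a systemic inflammation.

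The mature sequences below are those of the miRNAs on which the comparison turned, from RefSeq (GRCm38.p6), with the seed in capitals. MiR-155-5p and miR-21a-5p were above every saline library, miR-1306-5p and miR-1943-5p below every one, miR-451a is the most abundant red cell miRNA with a sequence in that table, and miR-146a-5p is the NF-kB target whose means were nearly equal in the 2 groups.
miR-155-5p: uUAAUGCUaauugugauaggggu
miR-21a-5p: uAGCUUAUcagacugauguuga
miR-146a-5p: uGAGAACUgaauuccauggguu
miR-451a: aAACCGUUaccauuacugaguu
miR-1306-5p: cACCACCUccccugcaaacgucc
miR-1943-5p: aAGGGAGGaucugggcaccugga
Of these 6, only miR-146a-5p shared its seed with another tested miRNA of that table, miR-146b-5p. A sequence was found for 467 of 538 tested miRNAs.

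The fragments below are examples of the tRFs named in the results, in which 0 tRFs were called. Their sequences are as in the deposited annotation. In the 5'-halves the capitals mark the last 3 bases, where the fragment was cut, and in the 3'-tRFs the CCA that is added to the end of a mature tRNA. The first 3 were among the 8 tRFs with the smallest p on the higher side and the next 3 among the 8 on the lower side. The 8 on the higher side also held 5'-tRFs, from AspGTC, GluTTC and LysCTT, whose sequences are not shown.
tRF-35-RPM830MMUKLY5Z (LeuTAG 5'-half): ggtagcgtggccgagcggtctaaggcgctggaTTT
ProTGG 5'-half of 33 bases: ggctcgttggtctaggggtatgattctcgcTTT
tRF-33-OUR8309NDJ58W (SerGCT 5'-half): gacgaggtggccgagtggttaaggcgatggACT
tRF-22-8BWS72092 (GlnCTG 3'-tRF): tcaaatctcggtggaacctCCA
tRF-18-HSQSD2D2 (TyrGTA 3'-tRF): atccggctcgaaggaCCA
tRF-22-WE8SP6X52 (GlyGCC 3'-tRF): tcgattcccggcccatgcaCCA

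The 8 libraries held 2198180 to 4385925 miRNA counts (median 3967313) and 61218 to 222881 tRF counts (median 150952), with the lowest miRNA total in LPS replicate 1 and the lowest tRF total in saline replicate 1. Between 763 and 884 miRNAs and between 1584 and 2402 tRFs were detected per library. The top 10 miRNAs of a library took 59.3% to 61.5% of its miRNA counts, and the top 10 tRFs 69.6% to 83.0% of its tRF counts. The 12 pairs of replicates differed by more than counting error, with a chi-square per degree of freedom of 21.96 to 121 for miRNAs and 7.11 to 45.6 for tRFs. The sensory neuron markers miR-96-5p, miR-182-5p and miR-183-5p lay above every SCG library of 4 h in 8 of 8 TG libraries, as did miR-124-3p, miR-128-3p and miR-338-3p, and miR-9-5p did in 7 of 8. The myelin miRNA miR-219a-5p, more typical of the central nervous system, was only 0.249 to 11.3 CPM. Epithelial and pituitary miRNAs varied between single libraries, with miR-375-3p between 11.3 and 991 CPM (CPM without TMM scaling for these markers). In the wider fit, saline replicates 1, 2 and 4 of TG at 7 d stood apart, with miR-9-5p at 21338, 20725 and 19907 CPM against 12867 CPM in replicate 3 and 11288 to 12355 CPM in the saline group of 4 h. Without the 8 TG libraries of 7 d, 0 miRNAs, tRFs or tRF families were called at 4 h, as with them.

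No miRNA was called at 4 h. MiR-155-5p was the highest-ranked among those that were higher after LPS. The 3' arms of miR-486a and miR-486b, which are on the list of red cell miRNAs, ranked first among those that were lower. Of 1978 miRNAs in the table, 1202 had a count in these libraries and 538 passed the filter on low counts. With the quasi-likelihood test of edgeR, 0 of 538 (0%) had an adjusted p under 0.05, which is the meaning of "called" throughout. At an unadjusted p under 0.05 there were 15, of which 6 were higher (1.12%) and 9 lower (1.67%), and DESeq2 called 2, miR-155-5p and miR-486a-3p. The 4 LPS libraries lay above all 4 saline libraries for 6 miRNAs (1.12%) and below them for 9 (1.67%). The log2 fold changes centred on 0.00 (median), with 5% of miRNAs below -0.45 and 5% above 0.48, and the median SE was 0.20. For 407 miRNAs (75.7%) the 95% confidence interval lay within a 2-fold change in either direction, that is, between -1 and 1 on the log2 scale.

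**Figure D1:**
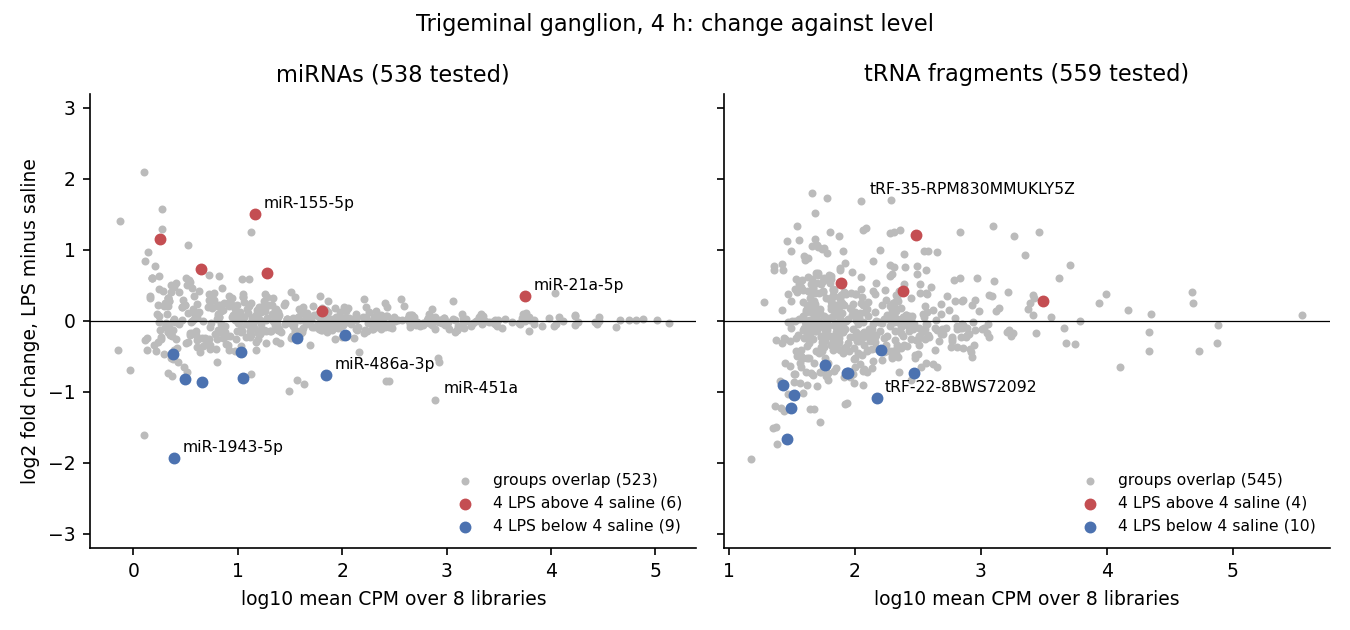
Log2 fold change (LPS minus saline, y axis) against log10 mean CPM over the 8 TG libraries of 4 h (x axis) for 538 miRNAs and 559 tRFs, 1 point each. Red points (6 miRNAs, 4 tRFs) have all 4 LPS libraries above all 4 saline libraries and blue points (9 miRNAs, 10 tRFs) all 4 below. The miRNAs spread less than the tRFs at a like CPM, but a like CPM means fewer counts for a tRF. A single count is 4.49 to 16.3 plain CPM for tRFs and 0.228 to 0.455 plain CPM for miRNAs.

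In the list of NF-kB targets and LPS-induced miRNAs, miR-155-5p was 6.98, 5.27, 8.62 and 9.54 CPM in saline replicates 1 to 4, and 35.3, 30.1, 9.94 and 12.6 CPM in LPS replicates 1 to 4 (CPM here and below are TMM-scaled). The LPS females were far above every saline library, and the lowest LPS male was just above the highest saline male. The group means were 7.602 ± 1.88 and 21.99 ± 12.6 CPM (SD, n = 4), 2.83-fold higher (log2 1.5 ± 0.38 SE, 95% confidence interval 0.72 to 2.28, adjusted p = 0.123 with edgeR). Its precursor lies in an exon of the noncoding gene Mir155hg (GRCm38, chromosome 16, 84714140 to 84714204, plus strand). It was called with DESeq2 (log2 1.52, adjusted p = 0.0124) and without LPS replicate 3 (1.79, adjusted p = 0.0383), and over all alternatives its log2 fold change lay between 1.18 and 1.79 and its adjusted p between 1.594e-07 and 0.989.

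MiR-21a-5p was far more abundant, at 4512, 4711, 5212 and 5605 CPM after saline and 6352, 7762, 5661 and 5680 CPM after LPS. Here too the LPS females were highest, and the lowest LPS library, a male, was only just above the highest saline library. The fold was 1.27 (log2 0.34 ± 0.17, 95% interval -0.0047 to 0.69, adjusted p = 1.00). MiR-132-3p, which neuronal activity and the transcription factor CREB raise, was 12.7, 15.5, 12.9 and 17.4 CPM after saline and 26.7, 24.5, 17.8 and 24.7 CPM after LPS. All 4 LPS libraries were above all 4 saline libraries, but the SE of the log2 fold change was large (0.67 ± 0.46, adjusted p = 1.00).

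MiR-146a-5p was 1444, 1418, 1528 and 1279 CPM after saline and 1626, 1676, 1168 and 1368 CPM after LPS, so the LPS females were above every saline library and the LPS males were not. Its log2 fold change was 0.04 ± 0.19 and that of its seed partner miR-146b-5p -0.04 ± 0.13. Of the 17 list members tested, 13 were above 0 and 4 below, against 271 above and 267 below over all 538 miRNAs. An unadjusted p under 0.05 was reached by 2 (miR-155-5p and miR-221-5p, both higher), against 6 higher (1.12%) over the 538. Above all saline libraries lay 3 (miR-21a-5p, miR-132-3p and, by the widest fold, miR-155-5p), against 6 (1.12%) over the 538. None of the list was called. The list's median log2 fold change was 0.06, against 0.00 over all miRNAs tested. Leaving out 1 library at a time gave medians of 0.03 to 0.13, and without LPS replicate 1 or LPS replicate 2 10 members were above 0 and 7 below. The list's most abundant member, miR-9-5p, averaged 11692 ± 472 CPM (saline) and 12141 ± 1648 CPM (LPS). Its log2 fold change is itself the list median, and it fell below 0 without LPS replicate 3 or 4. MiR-221-5p, the minor arm of a precursor linked to cell growth, was 10.3 ± 2.98 and 15.5 ± 4.05 CPM (log2 0.59 ± 0.26), while its major arm miR-221-3p had a log2 fold change of 0.04. The other activity-induced miRNAs, miR-132-5p, miR-212-3p and miR-212-5p, were also above 0, so 4 of 4 members of that list were, with a median of 0.43. MiR-212-3p (0 to 6 counts per library, log2 1.41 ± 1.16) was not tested in the fit of the 8 libraries alone or in that without the TG libraries of 7 d, and the medians of the other 3 were then 0.19 and 0.18. The most abundant, miR-132-5p, averaged 106.2 ± 15.2 and 120.3 ± 15.6 CPM (log2 0.18 ± 0.33).

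**Figure D2:**
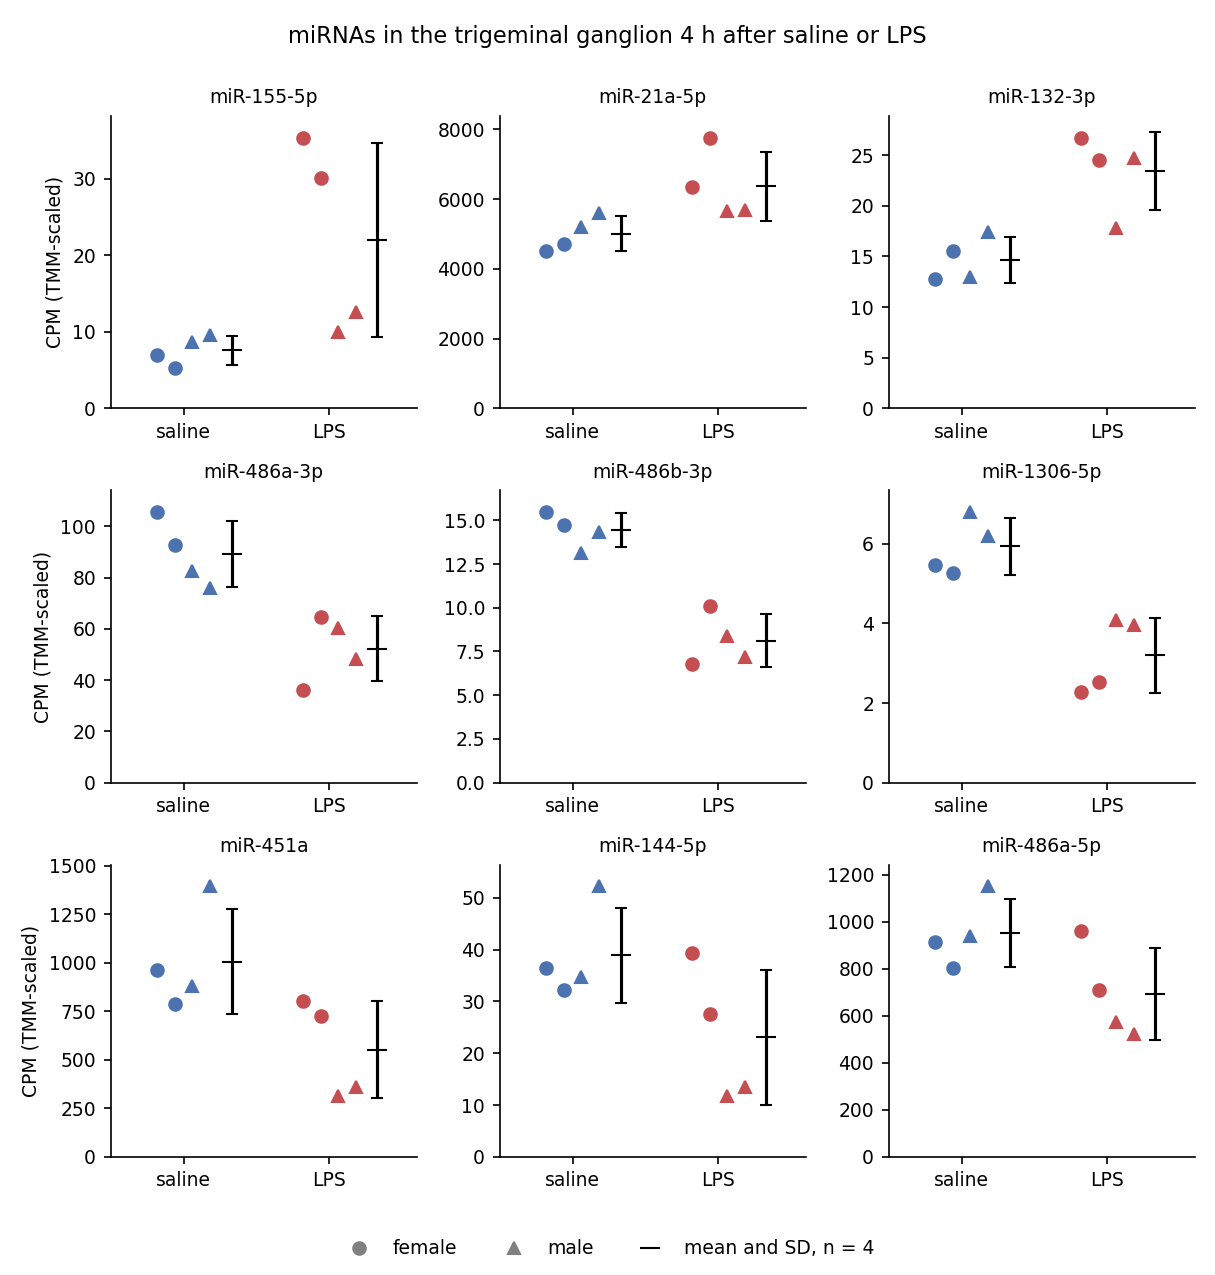
CPM after TMM scaling (y axis, from 0) of 9 miRNAs in each of the 4 saline (blue) and 4 LPS (red) TG libraries of 4 h; circles are females, triangles males, and black bars the mean and SD. MiR-155-5p was 35.3 and 30.1 CPM in the LPS females against 9.94 and 12.6 CPM in the LPS males, and for miR-451a and miR-144-5p it is the LPS males that sit lowest.

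The miRNAs of the red cell list made up the other group. Which cells of the ganglion held miR-486a and miR-486b was not tested. MiR-486a-3p was 105.6, 92.7, 82.5 and 76.1 CPM after saline and 36.3, 64.5, 60.1 and 48.1 CPM after LPS, so every LPS library was below every saline library in both sexes. Its mean went from 89.3 ± 12.9 to 52.2 ± 12.7 CPM (SD, n = 4), 1.70-fold lower (log2 -0.76 ± 0.18, 95% interval -1.13 to -0.40, adjusted p = 0.123 with edgeR). DESeq2 called it (log2 -0.76, adjusted p = 0.0106). MiR-486b-3p was 15.5, 14.8, 13.2 and 14.3 CPM and then 6.80, 10.1, 8.41 and 7.16 CPM, again with no overlap (log2 -0.81 ± 0.20, adjusted p = 0.123). The precursors of miR-486a (GRCm38, chromosome 8, 23142555 to 23142682, plus strand) and miR-486b (23142573 to 23142662, minus strand) overlap on opposite strands within an intron of Ank1. How reads were shared between them is not given in the sources used here, so they are not 2 independent measurements.

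MiR-451a, which is processed by Argonaute 2 and is the hallmark miRNA of red cells, was 961, 789, 881 and 1396 CPM after saline and 804, 727, 314 and 362 CPM after LPS. The males accounted for the low values, and female replicate 1 of the LPS group lay within the saline range. Its log2 fold change was -1.11 ± 0.58 (adjusted p = 1.00). MiR-144-5p and miR-144-3p, from a precursor next to that of miR-451a (chromosome 11, 78073005 to 78073070, against 78073170 to 78073241), had log2 fold changes of -0.99 ± 0.51 and -0.90 ± 0.61. The 5' arms miR-486a-5p and miR-486b-5p had -0.53 ± 0.35 and -0.58 ± 0.34, and miR-486b-5p, the most abundant of the list, averaged 1007 ± 150.1 and 704.6 ± 165 CPM. All 7 tested erythroid miRNAs were thus below 0, with a median of -0.81 against 0.00 over all miRNAs. Over all 538 miRNAs, 267 were below 0. Of the 7, 2 had an unadjusted p under 0.05, 2 lay below all saline libraries, and 0 were called. Over the 538, 9 (1.67%) were lower at an unadjusted p under 0.05 and 9 (1.67%) lay below all saline libraries. The 7 stayed below 0 in each of the 15 alternative fits. They come from neighbouring (miR-144 and miR-451a) or overlapping (miR-486a and miR-486b) precursors and from the same mice. These counts are therefore not independent, and the median is the value of miR-486b-3p itself. Without saline replicate 4, the highest library, the log2 fold changes of miR-451a, miR-144-5p and miR-144-3p were -0.72, -0.65 and -0.51. A fit with no count filter called 10 of 1418 miRNAs lower, and 6 of them were of this list (all but miR-486b-3p of the 7). The other lower ones were miR-1943-5p and the epithelial miR-200a-3p, miR-200b-3p and miR-429-3p. The same fit called 6 miRNAs higher, miR-155-5p, miR-21a-5p, miR-21a-3p, miR-143-3p, miR-135a-5p and miR-615-3p. In that fit the log2 fold change of miR-451a was -1.12 with an SE of 0.13, and the cause of the smaller SE was not tested. The summed level of the 7 erythroid miRNAs was 2628 to 3980 CPM after saline and 1529 to 2810 CPM after LPS, so the groups overlapped.

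By sex, the values of this group were as follows. In females the log2 fold change was -0.19 ± 0.65 for miR-451a, -0.04 ± 0.55 for miR-144-5p and -0.04 ± 0.37 for miR-486a-5p, and in males -1.75 ± 0.66, -1.78 ± 0.57 and -0.93 ± 0.37 (2 against 2 libraries each). The values of miR-486a-3p were -0.97 ± 0.27 in females and -0.55 ± 0.26 in males. No difference between the sexes was called for these 4 miRNAs (the smallest adjusted p among the 4, for miR-144-5p, was 0.882 with edgeR). The leukocyte list, which would follow white cells, had 9 tested members with a median of -0.17, 3 above 0 and 6 below, and 0 at an unadjusted p under 0.05. Its most abundant member, the lymphocyte miR-150-5p, was 170 ± 38.7 and 151 ± 42.7 CPM. The summed leukocyte level was 467 to 656 CPM after saline and 425 to 539 CPM after LPS. How much blood each ganglion held was not measured, and its part in the red cell values was not tested.

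MiR-1306-5p and miR-1943-5p came next by p among the lower miRNAs, both at few counts. MiR-1306-5p was 5.46, 5.27, 6.80 and 6.20 CPM after saline and 2.27, 2.53, 4.08 and 3.95 CPM after LPS (log2 -0.87 ± 0.23, adjusted p = 0.167). Each sex was lower after LPS, and the groups did not overlap. Its precursor lies in an exon of Dgcr8 (GRCm38, chromosome 16, 18284239 to 18284317, minus strand), the gene of the RNA-binding partner of Drosha that starts miRNA processing. MiR-1943-5p was 4.55, 2.90, 3.63 and 4.77 CPM after saline and 0, 0.506, 1.27 and 1.97 CPM after LPS (log2 -1.94 ± 0.57, adjusted p = 0.297). For LPS replicate 1, at 0 of 2198180 counts, the limit that a count of 0 allows is 1.37 plain CPM (3 counts).

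The remaining miRNAs at an unadjusted p under 0.05 were small in change or in level. Higher were miR-5126 (log2 1.57 ± 0.58), miR-154-3p (1.15 ± 0.46), miR-5615-5p (1.29 ± 0.55) and miR-873a-3p (0.58 ± 0.28), the first 3 of them below 4 CPM in every library. MiR-496a-3p completed the 8 highest by rank with 0.33 ± 0.16. Lower were miR-296-5p (-1.60 ± 0.57), miR-19a-3p (-0.83 ± 0.39), miR-877-5p (-0.58 ± 0.26), miR-27b-5p (-0.25 ± 0.10) and miR-195a-3p (-0.20 ± 0.09). Of these, miR-154-3p lay above every saline library and miR-19a-3p and miR-195a-3p below, and the largest mean among them was that of miR-195a-3p, at 114.5 ± 7.58 and 99.8 ± 6.87 CPM. Their adjusted p was 0.971 or above.

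The values of the most abundant miRNAs stayed within their spread. MiR-99a-5p averaged 136237 ± 9187 CPM (saline) and 132549 ± 5133 CPM (LPS), with a 95% interval of the log2 fold change from -0.20 to 0.12. MiR-26a-5p was 102368 ± 2181 and 102809 ± 3185 CPM (interval -0.14 to 0.16), and let-7f-5p, let-7i-5p, let-7c-5p, let-7a-5p and miR-27b-3p had log2 fold changes between 0.01 and 0.04. The sensory neuron cluster of miR-183, miR-182 and miR-96, which is needed for sensory neurons to mature, also stayed within its spread. MiR-183-5p was 50729, 46214, 40138 and 35608 CPM after saline and 41722, 42391, 39379 and 38900 CPM after LPS (log2 -0.09 ± 0.11, interval -0.32 to 0.15). The 6 tested members of that list were all below 0 with a median of -0.10, 0 had an unadjusted p under 0.05, and 1 or 2 turned above 0 in 5 of the 15 alternative fits.

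The medians of the other lists, which stand for cell types and programs a ganglion could hold, were 0.06 for neurons (15 tested, most abundant miR-128-3p at 16608 ± 2865 and 17520 ± 1066 CPM), 0.07 for myelinating glia (5, miR-338-5p) and 0.10 for endothelium (2, miR-126a-3p). They were 0.06 for muscle (6, miR-1a-3p), -0.01 for smooth muscle and mesenchyme (9, miR-143-3p), 0.06 for liver and gut (3, miR-192-5p) and -0.36 for epithelium and pituitary (10, miR-375-3p). They were 0.34 for p53-linked miRNAs (3, miR-34a-5p), 0.18 for the Hox cluster (4, miR-10b-5p), 0.01 for the let-7 family (9, let-7f-5p), -0.06 for miR-17-92 and paralogs (13, miR-25-3p) and 0.02 for the imprinted Dlk1-Dio3 cluster (33, miR-127-3p). The 1 tested hypoxia miRNA, miR-210-3p, had -0.05. In these 12 lists and miR-210-3p, 0 members were called and 1 had an unadjusted p under 0.05, miR-19a-3p. The Dlk1-Dio3 list did not hold every miRNA of that cluster. MiR-154-3p (1.15 ± 0.46) and miR-496a-3p (0.33 ± 0.16), named above, belong to the cluster but were not on the list. The summed epithelium and pituitary level ran from 151 to 3623 CPM after saline and from 139 to 1443 CPM after LPS, so single libraries set it. MiR-143-3p, the smooth muscle miRNA, was 9412 ± 2188 and 12320 ± 7080 CPM.

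Whether the response differed between sexes, ganglia or times was tested directly. No miRNA was called for a difference between males and females (0 of 538, 0%; 27 at an unadjusted p under 0.05). The smallest p was that of miR-155-5p, with log2 fold changes of 2.41 ± 0.38 (females) and 0.31 ± 0.36 (males) (male minus female -2.10 ± 0.52, adjusted p = 0.480 with edgeR). It was the 1 miRNA called in females alone (of 538, 0.186%; adjusted p = 0.004), and 0 were called in males alone (0%), each with 2 against 2 mice. Next by p were miR-23b-3p (-0.73 ± 0.20) and miR-152-3p (-0.54 ± 0.16).

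At 4 h in the SCG 0 of 506 miRNAs were called (0%), and the TG and SCG responses differed for 0 of 577 (0%; 20 at an unadjusted p under 0.05). The labels do not say which TG and SCG libraries came from the same mouse, so the libraries were treated as independent in that test. MiR-155-5p had log2 fold changes of 1.5 ± 0.38 in TG and 1.73 ± 0.37 in SCG, a difference of -0.26 ± 0.52. Those of miR-21a-5p were 0.34 ± 0.17 and 1.02 ± 0.31. MiR-451a pointed down in TG and up in SCG (0.83 ± 0.49), with a difference of -2.001 ± 0.75 that was not called. The 3 smallest p of the difference belonged to miR-1943-5p (-2.29 ± 0.71), miR-5113 (-2.11 ± 0.74) and miR-183-3p (4.37 ± 1.53), all at adjusted p = 1.00. MiR-183-3p is a sensory neuron miRNA that did not pass the count filter in the SCG alone, and its TG value was -0.11 ± 0.27.

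In TG at 24 h 2 of 538 miRNAs were called (0.372%), miR-21a-5p at a log2 fold change of 1.28 ± 0.17 and miR-155-5p at 1.93 ± 0.36. At 7 d 33 of 538 were called (6.13%), in a comparison that rests on the saline libraries named above as standing apart. The change from 4 h to 24 h in the LPS effect was called for 0 of 538 (0%; 16 at an unadjusted p under 0.05). Its smallest p was that of miR-21a-5p (24 h minus 4 h 0.94 ± 0.24, adjusted p = 0.418), followed by miR-1306-5p (0.93 ± 0.31) and miR-146a-5p (0.79 ± 0.27). For miR-155-5p the 4 h value was close to that at 24 h in size, and for miR-146a-5p the values were 0.04 ± 0.19, 0.83 ± 0.20 and 1.45 ± 0.20 at 4 h, 24 h and 7 d. MiR-486a-3p had -0.76 ± 0.18, -0.27 ± 0.17 and 0.47 ± 0.17.

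**Figure D3:**
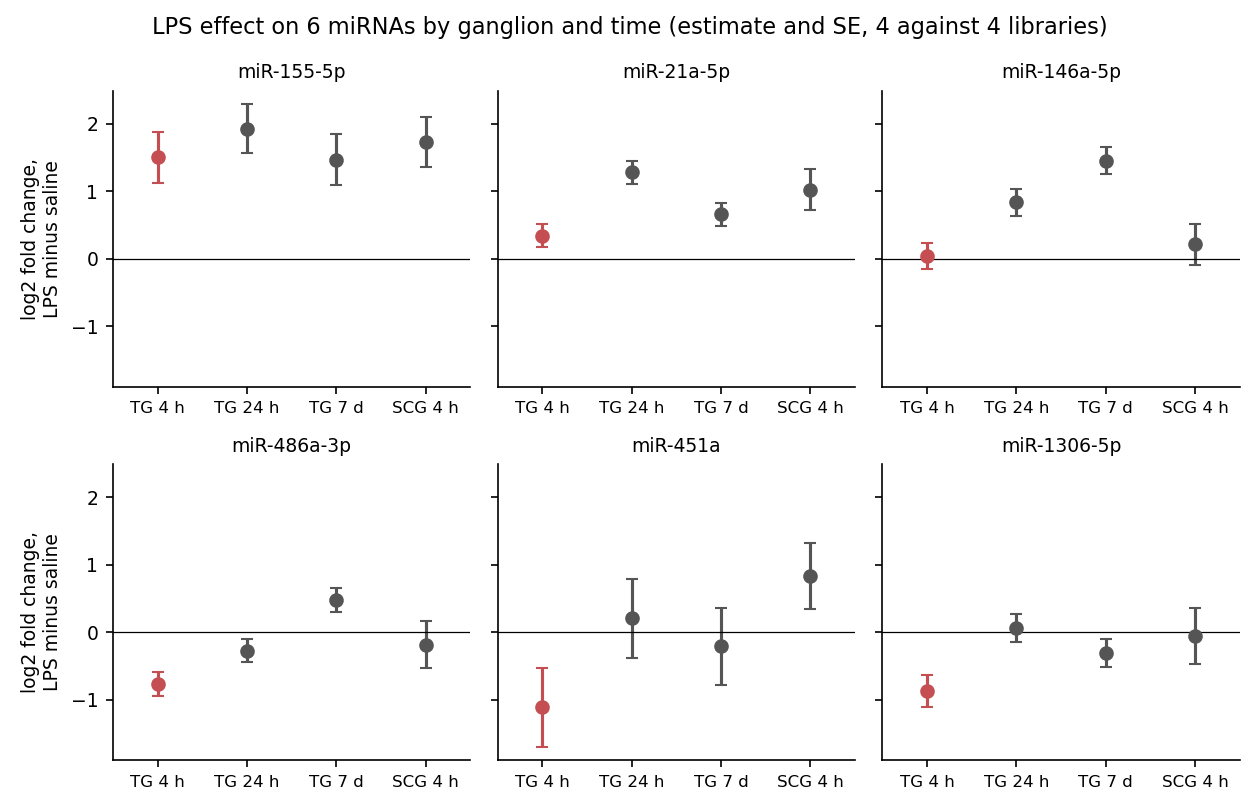
Log2 fold change of LPS against saline (y axis, point) with its SE (bar) for 6 miRNAs in TG at 4 h (red), 24 h and 7 d and in SCG at 4 h (x axis), 4 against 4 libraries each. MiR-155-5p lay between 1.47 and 1.93 in all 4 settings, while miR-146a-5p was 0.04 at 4 h and 1.45 at 7 d in TG.

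The tRFs of the ganglion came mostly from 1 tRNA and 1 fragment type. Fragments of the glutamate tRNA GluCTC took 66.4 ± 7.03% of tRF counts after saline and 65.2 ± 5.596% after LPS (SD, n = 4). HisGTG followed with 11.4 ± 2.98% and 12.3 ± 1.01%, then LysCTT with 4.92 ± 1.06% and 5.28 ± 1.04%, and GlyGCC with 4.27 ± 1.63% and 4.64 ± 2.47%. None of the 12 most abundant parents differed in share (exact permutation test over 70 assignments, two-sided, adjusted p = 0.838 or above over 12).

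The most abundant fragments of the next 3 tRNAs were 5'-halves. The HisGTG fragment tRF-34-6SXMSL73VL4YHE averaged 41136 ± 11063 CPM (saline) and 54606 ± 17111 CPM (LPS), with a log2 fold change of 0.41 ± 0.45. The GlyGCC fragment tRF-31-P4R8YP9LON4VD had -0.16 ± 0.52 and the LysCTT fragment tRF-33-PSQP4PW3FJI0W 0.09 ± 0.44.

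The share of each fragment type was within the spread. The 5'-halves held 66.8%, 77.7%, 68.0% and 77.2% of tRF counts after saline and 71.2%, 80.1%, 71.8% and 70.8% after LPS (means 72.4 ± 5.83% and 73.5 ± 4.44%, p = 0.8286, exact permutation test). The 5'-tRFs held 15.9 ± 1.44% and 16.5 ± 2.44%, i-tRFs 5.01 ± 1.88% and 4.58 ± 1.47%, 3'-tRFs 5.87 ± 2.59% and 4.83 ± 1.54%, and 3'-halves 0.837 ± 0.298% and 0.683 ± 0.272% (exact permutation p = 0.686, 0.686, 0.543 and 0.457, and adjusted p = 0.8286 for each of the 5 types). The smallest p that 4 against 4 libraries allow is 0.0286. Of the 5'-halves, saline replicates 2 and 4 and LPS replicate 2 had the most, and the other 5 libraries lay between 66.8% and 71.8%. Without the GluCTC fragments the 5'-halves held 56.5 ± 8.24% and 58.3 ± 6.86% (exact permutation p = 0.686), the 5'-tRFs 13.2 ± 1.98% and 16.4 ± 4.91% (exact permutation p = 0.314), and the 3'-tRFs 16.8 ± 5.09% and 13.5 ± 3.27% (exact permutation p = 0.229), with an adjusted p of 0.524 or more for each type. There were 3.67 ± 1.84 tRF counts per 100 miRNA counts after saline, with a range of 1.76 to 5.28, and 4.11 ± 1.10 after LPS, with a range of 3.11 to 5.54 (mean log2 difference 0.28, exact permutation p = 0.514).

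**Figure D4:**
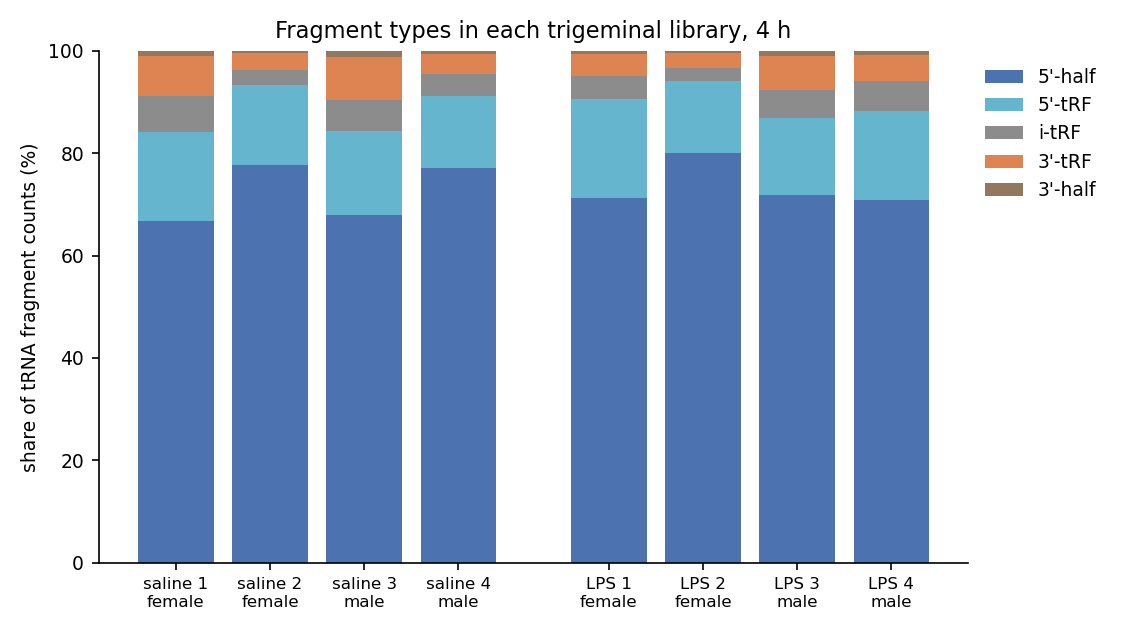
Share of tRF counts (y axis, percent, stacked to 100) held by the 5 fragment types in each of the 8 TG libraries of 4 h (x axis, with sex). The 5'-halves held 66.8% to 77.7% in the saline libraries and 70.8% to 80.1% in the LPS libraries.

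Of 13007 tRFs in the table, 5550 had a count in the 8 libraries and 559 passed the filter. With edgeR 0 of 559 (0%) were called, 10 were higher (1.79%) and 11 lower (1.97%) at an unadjusted p under 0.05, and DESeq2 called 0. The LPS libraries lay above all saline libraries for 4 tRFs (0.716%) and below for 10 (1.79%). The median SE was 0.47 on the log2 scale, and for 139 tRFs (24.9%) the 95% interval lay between -1 and 1. The intervals of the others reached past 2-fold in at least 1 direction.

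The 10 tRFs higher at an unadjusted p under 0.05 were 5 of 115 5'-tRFs, 4 of 91 5'-halves and 1 of 207 i-tRFs. The 11 lower ones were 7 of 116 3'-tRFs, 2 of 207 i-tRFs, 1 of 30 3'-halves and 1 of 91 5'-halves. A difference between the types was not tested. Over all tested members, 78 of 115 5'-tRFs were above 0 (median log2 0.28) and 89 of 116 3'-tRFs below 0 (median -0.21), against a median of -0.03 over the 559. Without LPS replicate 1 the 5'-tRF median was 0.15 (86 of 132 above 0), and the 3'-tRF median was -0.11 without saline replicate 1 (83 below 0 and 43 above) and -0.10 without saline replicate 3 (81 below 0 and 45 above). The 3'-tRF count depends on the scale. With the TMM-scaled miRNA total of each library as its size, the median of all tRFs was 0.18. On that scale 51 of 116 3'-tRFs were below 0 (median 0.03), while 95 of 115 5'-tRFs were above 0 (median 0.47). Members of a type share parent tRNAs and overlap in sequence, and they come from the same 8 mice, so these counts are not independent.

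Among the higher tRFs the smallest p was that of tRF-35-RPM830MMUKLY5Z, a 5'-half of the leucine tRNA LeuTAG. It was 63.6, 109.5, 19.2 and 20.2 CPM after saline and 302.6, 189.8, 112.2 and 82.3 CPM after LPS, from 3 to 30 counts per library. Within each sex both LPS mice were above both saline mice, but the LPS males overlapped with the saline females. The log2 fold change was 1.69 ± 0.48 (95% interval 0.70 to 2.68, adjusted p = 0.924 with edgeR). By sex it was 1.445 ± 0.45 (females) and 2.25 ± 0.53 (males).

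The 33-base proline fragment was better counted, at 1453, 2341, 1090 and 1150 CPM after saline and 3947, 4973, 1614 and 1491 CPM after LPS. It was again higher in both sexes, with a larger step in females (log2 0.92 ± 0.34, adjusted p = 0.934). The serine fragment tRF-33-OUR8309NDJ58W was 212, 198.5, 103 and 30.3 CPM and then 529.6, 379.6, 224 and 169 CPM (log2 1.28 ± 0.58). In these 3 fragments the females were higher than the males in both groups. The other 5 of the 8 higher tRFs with the smallest p came from LeuCAA, AspGTC, GluTTC, LysCTT and ValTAC, with log2 fold changes between 0.61 and 1.73. The GlyGCC 5'-tRF tRF-29-P4R8YP9LONHK, named for its lack of overlap after its values were seen, was 63.6 to 315 CPM after saline and 337 to 605 CPM after LPS (1.21 ± 0.58).

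**Figure D5:**
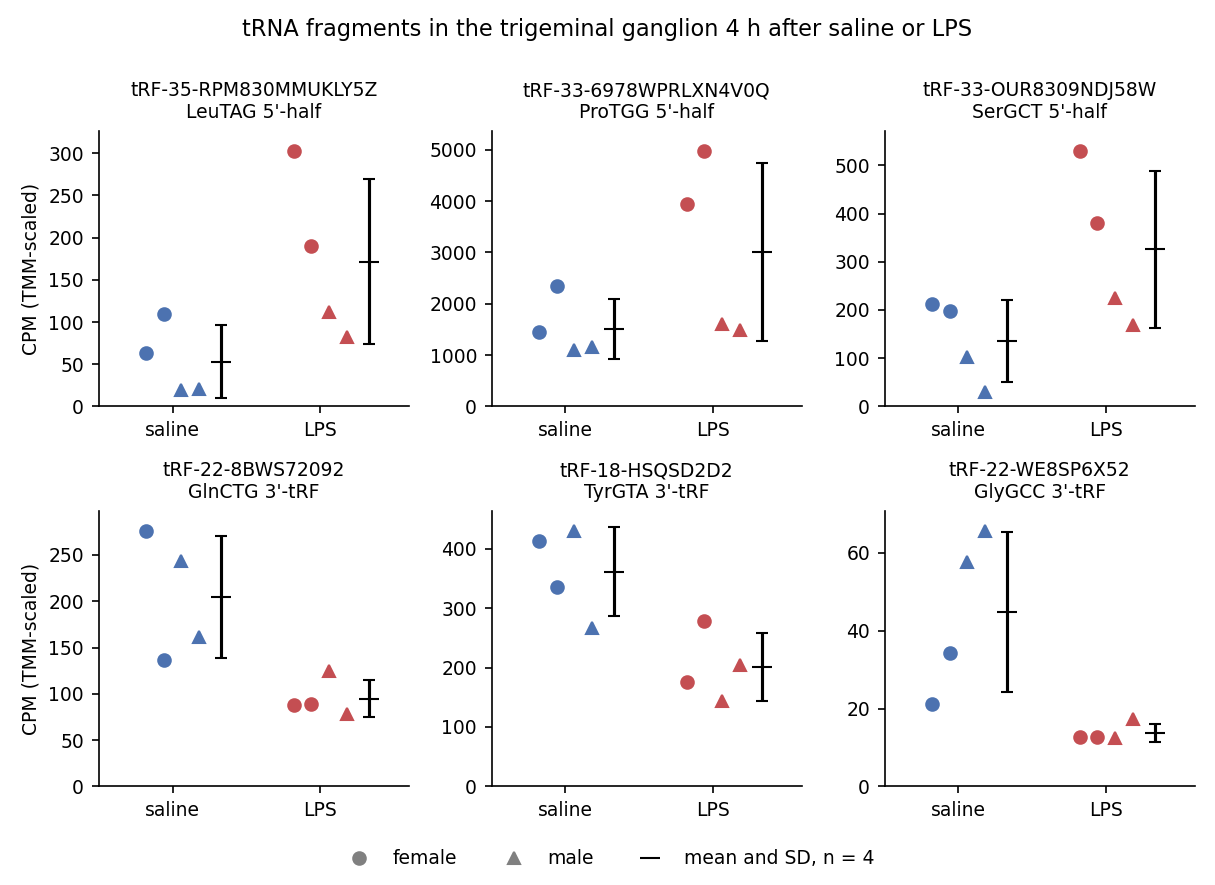
CPM after TMM scaling (y axis, from 0) of 6 tRFs in each saline (blue) and LPS (red) TG library of 4 h, with circles for females, triangles for males and black bars for the mean and SD. For the 3 upper fragments females exceed males in both groups, and for tRF-22-8BWS72092 and tRF-22-WE8SP6X52 all LPS libraries lie below all saline libraries.

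Among the lower tRFs, 3'-tRFs with the CCA end or 1 base short of it led. The glutamine fragment tRF-22-8BWS72092 was 276, 137, 244 and 161 CPM after saline and 88.3, 88.6, 125 and 78.0 CPM after LPS, with no overlap (log2 -1.09 ± 0.37, 95% interval -1.84 to -0.33, adjusted p = 0.934). Its counts ran from 7 to 38 per library. The tyrosine fragment tRF-18-HSQSD2D2 was 414, 335, 430 and 267 CPM and then 177, 278, 143.3 and 204 CPM (-0.83 ± 0.32), with 1 LPS library inside the saline range. The tyrosine fragment tRF-16-884U1DD was 371 ± 76.6 and 223.1 ± 33.5 CPM (-0.73 ± 0.31). Its sequence lies within that of tRF-18-HSQSD2D2 and stops 1 base short of the CCA end, so these are not separate measurements. The glycine fragment tRF-22-WE8SP6X52 was 21.2 to 65.6 CPM after saline and 12.5 to 17.3 CPM after LPS, which is 1 to 4 counts per LPS library. The other 4 came from GluCTC, GlyTCC, AsnGTT and GluTTC, with log2 fold changes between -1.43 and -0.68.

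Summing the fragments of 1 type from 1 parent gave 137 testable families, of which 0 (0%) were called by edgeR and 0 by DESeq2. At an unadjusted p under 0.05, 5 were higher (3.65%) and 2 lower (1.46%), and 1 family lay above all saline libraries (0.73%) and 1 below (0.73%). The family above was the SerGCT 5'-tRF, at 50.8, 106.5, 66.1 and 57.0 CPM after saline and 179, 177, 146 and 173.5 CPM after LPS, even across sexes (log2 1.25 ± 0.45, adjusted p = 0.792 with edgeR). It rested on few counts, 5 to 16 per saline library and 15 to 37 per LPS library. The SerGCT 5'-half family had 1.11 ± 0.53, and in a fit of the 8 libraries of 4 h alone it was called (1.13 ± 0.21, adjusted p = 0.0294). The LeuTAG 5'-half (0.98 ± 0.39), ProTGG 5'-half (0.81 ± 0.32) and GlnTTG i-tRF (0.70 ± 0.30) families were the other higher ones. The 2 lower ones were LysTTT i-tRF (-0.41 ± 0.18) and LysCTT 3'-tRF (-1.09 ± 0.50, and -0.62 without saline replicate 3). The next 3 below 0 by p, TyrGTA 3'-tRF (-0.34 ± 0.18), IleAAT i-tRF (-0.73 ± 0.39) and LeuCAG 3'-tRF (-0.62 ± 0.35, and -0.35 without saline replicate 3), had an unadjusted p above 0.05, and LeuCAG 3'-tRF lay below all saline libraries. Each of these 10 kept its direction under all alternatives, though LysCTT 3'-tRF held only 4 to 16 counts per library and IleAAT i-tRF 3 to 11. In the SCG at 4 h the log2 fold changes of the 5 higher families were -0.10 ± 0.70 (SerGCT 5'-tRF), 0.09 ± 0.85 (SerGCT 5'-half), 0.15 ± 0.56 (LeuTAG 5'-half), 0.90 ± 0.44 (ProTGG 5'-half) and 0.45 ± 0.60 (GlnTTG i-tRF). Those of the others were -0.14 ± 0.31 (LysTTT i-tRF), -0.08 ± 0.31 (TyrGTA 3'-tRF), -0.72 ± 0.55 (IleAAT i-tRF) and -0.77 ± 0.41 (LeuCAG 3'-tRF), and LysCTT 3'-tRF had no fitted value there.

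No difference in the tRF response was called by sex (0 of 559 called, 0%; 10 at an unadjusted p under 0.05), ganglion (0 of 729, 0%; 30) or between 24 h and 4 h (0 of 559, 0%; 15). The smallest p of the sex test was that of the serine 3'-tRF tRF-16-8Y3DUVD, with 1 and 15 counts in the saline females, 0 and 0 in the LPS females, 6 and 7 in the saline males and 14 and 17 in the LPS males. Its adjusted p was 0.151 with edgeR, and 0.0131 without saline replicate 1, the library with the lowest tRF total. The 2 zeros allow up to 40.3 and 13.5 plain CPM (3 counts). The next were tRF-35-EH623K7SIR3DR2 and tRF-29-389MV47P59I8. In the ganglion test the smallest p belonged to tRF-19-2S3HPS2E, tRF-36-PSQP4PW3FJIKE7E and tRF-29-IK9NJ4S2I71V (adjusted p = 0.363 each), and in the time test to tRF-19-8WI26WIZ, tRF-22-R29P4P9LL and tRF-23-S3M8309NS (adjusted p = 0.993 each).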

How the data were processed

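The deposited values are raw counts of mature miRNAs and of tRFs, 1 table each over 48 libraries. Per the labels' protocols, 140 ng of RNA per sample entered a small RNA library kit, sequenced on a NextSeq 500. FastQC 0.11.9 and the genome build GRCm39 come from the submitters' processing notes, and the sources used here do not name the aligner or counter. Fragment types and parents are those of the deposited annotation. Its tRF locations are not of the mouse genome (346 of 13007 tRFs have one on chromosomes 20 to 22, which mice lack), so no tRF position is printed; gene positions are from GRCm38.

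Libraries were grouped by the labels' ganglion, time and treatment, with replicates numbered in accession order. Counts of the 24 TG libraries were fitted with edgeR 4.0.16 in R 4.3.3 (TMM, filterByExpr with a minimum count of 10, robust quasi-likelihood F-test, 6 groups plus sex) with Benjamini-Hochberg adjustment over all features. Sex differences came from 12 cells of group and sex, ganglion differences from all 48 libraries. The script was tested on simulated counts with the same spread for every feature, so that test does not show how it performs on these data. Intervals and the 3-count limit cover counting or model error only. Members and 18 lists (175 names) were chosen with earlier results of these data known. Named were the 8 smallest p per direction (5 for tRF families), the 8 most abundant, the most abundant and the unadjusted p under 0.05 of the main lists, and the 3 smallest p of each difference test; values of other members of the NF-kB, red cell and activity lists (such as miR-451a, miR-144, miR-132-3p and miR-146b-5p) were added after they were seen. DESeq2 1.42.0, other scalings, no filter, no sex term, the 8 libraries alone and each library left out were alternatives. The fits without the TG libraries of 7 d and the shares without GluCTC tRFs were added after seeing the data. Some of the single tRFs that the naming rule picked are not reported here.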

Additional observations from a re-analysis of the deposited data

Results flagged for a closer look

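In 6 of 116 groups of 4 libraries 1 library stood apart from the other 3 by more than Dixon's 95% limit for a gap over the group's range, and chance gives about 1 in 20. Among the miRNAs, miR-150-5p was 87.5 CPM in LPS replicate 1 against 166 to 175 CPM in the other LPS libraries; without that library its log2 fold change was 0.01 in place of -0.17. Among the tRFs, tRF-22-WE8SP6X52 was 17.3 CPM in LPS replicate 4 against 12.5 to 12.6 CPM, a gap of a few counts. The LeuTAG 5'-half family was 432.5 CPM in saline replicate 2 against 181.5 to 213 CPM. The GlnTTG i-tRF family was 185.0 CPM in saline replicate 3 against 99.8 to 114 CPM, and the LeuCAG 3'-tRF family 244 CPM in the same library against 126.4 to 140.0 CPM. The share of 5'-halves was 80.1% in LPS replicate 2 against 70.8% to 71.8%.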

How the results depend on the processing

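The counts of calls depended most on the filter. Without a filter, 16 of 1418 miRNAs (6 higher, 10 lower) and 3 of 273 tRF families were called, where the filtered fits called 0. In the tests of a difference, 3 miRNAs by sex, 14 miRNAs and 2 tRFs by ganglion and 18 miRNAs by time were called, again against 0. In the unfiltered fit the SE of miR-451a was 0.13 in place of 0.58, and the cause was not tested. DESeq2 called 2 miRNAs, and the 8 libraries of 4 h alone gave 1 tRF family. Leaving out 1 library at a time gave 0 to 1 miRNAs (1 without LPS replicate 3) and 0 to 1 tRFs in the sex difference (1 without saline replicate 1), and 0 elsewhere. The difference in share (LPS minus saline) ranged from -1.16 to 2.81 percentage points for 5'-halves, from -0.39 to 1.41 for 5'-tRFs and from -1.18 to 0.24 for i-tRFs, from -1.88 to -0.19 for 3'-tRFs and from -0.27 to -0.05 for 3'-halves, and the log2 ratio of tRF to miRNA counts from -0.01749 to 0.5124. Of 70 named features 3 changed direction when 1 library was left out. The log2 fold change of miR-9-5p ranged from -0.009535 to 0.1103 (below 0 without LPS replicate 3, at -0.001241, or 4), that of miR-146a-5p from -0.04983 to 0.1305 (below 0 without LPS replicate 1 or 2 or saline replicate 4), and that of miR-150-5p from -0.3428 to 0.008429 (above 0 without LPS replicate 1). No paired analysis was possible because the labels give the groups no shared replicate numbers. With 4 mice per group, 407 of 538 miRNAs but only 139 of 559 tRFs had intervals within a 2-fold change.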
